A study of Homo sapiens with 18 samples.

Results

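HOXA3, HOXA4, HOXA5, HOXA6, HOXA7, HOXA9, HOXA10 and HOXA11 of the HOXA cluster, with the cofactor genes MEIS1 and PBX3, were followed in 3 human acute myeloid leukaemia cell lines. These 10 genes were found by symbol among the 40184 gene rows of the expression table, and all 10 had a row and passed the filter on low values. Molm-14 and MV4-11 carried FLT3-ITD by their labels, meaning that a stretch of the receptor tyrosine kinase FLT3 is repeated within the gene, and the label of SKNO-1 is KIT N822K. Each line received DMSO as vehicle or 500 nM RMC-4550 for 24 h, with 3 biological replicates in each of 6 groups and 18 RNA-seq libraries in all. RMC-4550 is an allosteric inhibitor of SHP2, a phosphatase that receptors use to activate RAS and the MAPK cascade. Only SKNO-1 was cultured with hGM-CSF (10 ng/mL), which means that line and growth factor cannot be told apart. Each line stands for 1 leukaemia, and the p-values rest on the spread between replicates, pooled over all 6 groups in the main fit. The comparisons asked how strongly each gene was read in the 3 lines with DMSO, and whether its level changed with the inhibitor in each line.

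HOX genes encode homeodomain transcription factors that pattern the body axis in the embryo and are used again in blood stem and progenitor cells, where their levels fall as cells mature. HOXA proteins bind DNA together with the TALE homeodomain proteins of the PBX and MEIS families, and HOXA9 with MEIS1 is a well-known driver of leukaemia. Fusions of KMT2A, a histone methyltransferase that binds unmethylated CpG-rich DNA and keeps HOXA genes active, are known in Molm-14 (KMT2A-MLLT3) and MV4-11 (KMT2A-AFF1), whereas SKNO-1 is known for RUNX1-RUNX1T1.

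The 8 HOXA genes lie on the minus strand of chromosome 7 in GRCh38 with GENCODE 29 annotation. HOXA3 (ENSG00000105997) is at chr7:27106184-27152581, HOXA4 (ENSG00000197576) at chr7:27128507-27130799, HOXA5 (ENSG00000106004) at chr7:27141052-27143668 and HOXA6 (ENSG00000106006) at chr7:27145396-27150603. HOXA7 (ENSG00000122592) is at chr7:27153716-27157936, HOXA9 (ENSG00000078399) at chr7:27162435-27175180, HOXA10 (ENSG00000253293) at chr7:27170591-27180261 and HOXA11 (ENSG00000005073) at chr7:27181510-27185223. MEIS1 (ENSG00000143995) is at chr2:66433452-66573869 and PBX3 (ENSG00000167081) at chr9:125747345-125967377, both on the plus strand. Bases upstream of the transcription start were taken from RefSeq (GRCh38.p14), which held a start for 9 of the 10 genes. For a gene with several starts the one farthest upstream was used. The 250 bases upstream of HOXA4 and HOXA7 are shown because these genes were almost unread in SKNO-1, and those of HOXA9 and HOXA10 because they were read in every library. All 4 stand on the minus strand of chromosome 7, HOXA4 at chr7:27130758-27131007, HOXA7 at chr7:27156676-27156925, HOXA9 at chr7:27165538-27165787 and HOXA10 at chr7:27179862-27180111. The GENCODE 29 spans of these genes reach past the RefSeq starts used. The stretches of HOXA7, HOXA9 and HOXA10 therefore lie inside the gene spans given above, and that of HOXA4 overlaps its span. The bases just after the HOXA9 start were not found in a GENCODE 29 transcript of the gene. Which start was used in these cells was not tested. Capitals mark a match to 1 of 4 motifs, each searched on both strands. The composite motif of HOX and PBX proteins was written TGATTNAT. The MEIS motif was written TGACAG, that of ETS factors CCGGAAG, and the TATA box TATAAA. Matches to different motifs did not overlap in these stretches.
HOXA4: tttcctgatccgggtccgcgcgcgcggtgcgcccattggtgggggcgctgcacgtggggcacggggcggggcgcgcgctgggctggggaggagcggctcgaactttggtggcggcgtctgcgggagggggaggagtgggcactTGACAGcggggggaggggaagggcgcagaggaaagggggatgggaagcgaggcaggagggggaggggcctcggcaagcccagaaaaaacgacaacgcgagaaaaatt
HOXA7: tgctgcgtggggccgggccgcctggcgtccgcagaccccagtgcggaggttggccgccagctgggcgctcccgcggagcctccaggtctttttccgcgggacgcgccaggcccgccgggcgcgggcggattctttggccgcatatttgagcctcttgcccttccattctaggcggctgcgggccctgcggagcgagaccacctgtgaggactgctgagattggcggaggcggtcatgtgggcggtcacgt
HOXA9: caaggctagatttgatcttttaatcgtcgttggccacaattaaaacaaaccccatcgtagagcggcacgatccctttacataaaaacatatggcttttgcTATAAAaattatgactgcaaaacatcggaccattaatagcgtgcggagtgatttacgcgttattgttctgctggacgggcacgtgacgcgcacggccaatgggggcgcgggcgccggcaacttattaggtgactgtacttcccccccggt
HOXA10: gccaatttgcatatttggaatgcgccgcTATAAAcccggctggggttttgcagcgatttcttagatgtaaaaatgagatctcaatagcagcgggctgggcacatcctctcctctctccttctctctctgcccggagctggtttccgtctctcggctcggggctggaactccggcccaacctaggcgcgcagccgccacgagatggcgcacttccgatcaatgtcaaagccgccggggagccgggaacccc
TATAAA was found upstream of HOXA3, HOXA9 and HOXA10 and in 10.7% of all 35116 RefSeq promoters of the same length. TGACAG was found upstream of HOXA4 and PBX3 and in 13.0% of all promoters, and CCGGAAG upstream of MEIS1 and in 8.52%. TGATTNAT was in none of the 9 stretches and in 2.48% of all promoters. A match is a string of letters and not a measured binding site. CG dinucleotides numbered 26 upstream of HOXA4, 28 upstream of HOXA7, 20 upstream of HOXA9 and 19 upstream of HOXA10, against a median of 11 over all promoters. HOXA3, nearly unread in SKNO-1, and HOXA11, read in every library, were both at 11. HOXA6 had 27 and MEIS1 16. PBX3 had 36, a number reached by 4.85% of promoters.

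Library totals lay between 17434810 and 19959917 reads. The share of reads in mitochondrial genes was 10.5% to 15.0% in 4 libraries and 5.07% to 7.02% in the other 14. These 4 were Molm-14 with RMC-4550 replicate 2, MV4-11 with DMSO replicates 1 and 3, and MV4-11 with RMC-4550 replicate 1. Results are also given without these 4. Only replicate 2 of MV4-11 with DMSO then remains, so MV4-11 results in that setting are given as changes without calls. The myeloid markers CD33, CSF3R, CEBPA, SPI1 and PTPRC were read in all 3 lines, whereas MPO reached over 10 CPM (reads per 1000000 of the effective library) in SKNO-1 only and CD68 was near 0 in every group. RUNX1T1 had a DMSO mean of 13.8 CPM in SKNO-1 and no more than 1 read in any library of the other lines. A set of 69 genes reached 10 CPM in Molm-14 while SKNO-1 had less than 1% of their Molm-14 level, and MV4-11 held 4.04% to 129% of it, with 0 genes under 1%. Conversely, 61 genes that reached 10 CPM in MV4-11 had less than 1% of their MV4-11 level in Molm-14. The MV4-11 mean lay between the means of the other lines for 52.8% of 16262 genes and for 9 of the 10 genes here, with MEIS1 as the exception. The part of this property in the MV4-11 values was not tested.

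HOXA9, HOXA10 and HOXA11, the posterior genes of the cluster with a role in leukaemia (HOXA9) and in limb and reproductive tract patterning (HOXA10 and HOXA11), were read in every library and were highest in Molm-14. With DMSO, HOXA9 was at 134, 136 and 141 CPM in the Molm-14 libraries, 90.5, 93.4 and 93.7 CPM in MV4-11 and 52.5, 54.8 and 53.9 CPM in SKNO-1. No library of one line reached the range of another. HOXA10 was at 68.7, 68.7 and 65.0 CPM in Molm-14, 47.5, 50.5 and 41.6 CPM in MV4-11 and 31.1, 32.7 and 31.7 CPM in SKNO-1. HOXA11 was at 57.4, 56.9 and 57.5 CPM in Molm-14, 34.3, 37.0 and 36.1 CPM in MV4-11 and 12.1, 12.3 and 13.3 CPM in SKNO-1. For both genes the 3 lines again fell into separate ranges in the same order. Molm-14 exceeded SKNO-1 by 1.35 (SE 0.07) on the log2 scale for HOXA9, 1.08 (SE 0.11) for HOXA10 and 2.19 (SE 0.09) for HOXA11, with limma adjusted p of 9.2e-11, 2.1e-07 and 4.7e-12. MV4-11 exceeded SKNO-1 by 0.78, 0.54 and 1.51 (adjusted p 3.2e-07, 0.00093 and 2.1e-09).

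HOXA3 to HOXA7, the genes on the other side of the cluster from HOXA9, were read in both FLT3-ITD lines and were nearly unread in SKNO-1. HOXA3, which patterns pharyngeal arch tissue in the embryo, was at 31.5, 30.7 and 30.5 CPM in Molm-14 with DMSO, 18.2, 16.2 and 22.6 CPM in MV4-11 and 0.46, 0.28 and 0.57 CPM in SKNO-1. HOXA5, a regulator of lung development and myeloid progenitors, was at 18.6, 20.5 and 20.9 CPM in Molm-14, 9.09, 9.46 and 9.87 CPM in MV4-11 and 0.37, 0.37 and 0.28 CPM in SKNO-1. The lines did not overlap for either gene. HOXA4, HOXA6 and HOXA7 were lower throughout, with DMSO means of 4.58, 3.93 and 3.80 CPM in Molm-14 and 2.69, 1.44 and 1.94 CPM in MV4-11. In SKNO-1 each of these 5 genes had 0 to 13 reads per library over both treatments. Summed over the 3 DMSO libraries, the level in Molm-14 was 71.4 times that in SKNO-1 for HOXA3 (exact 95% interval 49.2 to 108), 16.5 times for HOXA4 (10.2 to 28.2), 58.7 times for HOXA5 (38.6 to 94.1) and 31.7 times for HOXA6 (15.8 to 74.4). HOXA7 rested on 2 SKNO-1 reads and gave a ratio of 123 with an interval of 33.5 to 1020. These intervals treat reads as independent and leave out the spread between replicates. Reads amplified from the same molecule would not be independent, so the intervals can be too narrow. Against MV4-11 the SKNO-1 level was lower by ratios from 9.57 for HOXA4 to 62.5 for HOXA7.

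The cofactor genes did not follow this order. MEIS1, which stabilises HOX-PBX complexes on DNA, was at 93.3, 90.3 and 88.6 CPM in Molm-14 with DMSO, 133, 116 and 126 CPM in MV4-11 and 119.8, 119 and 118 CPM in SKNO-1. Every Molm-14 library lay below every library of the other lines, which overlapped each other. PBX3, the PBX protein most often tied to HOXA9 in leukaemia, was at 180.0, 179 and 174 CPM in Molm-14, 109.6, 146 and 107 CPM in MV4-11 and 115, 114 and 113 CPM in SKNO-1. Molm-14 was the highest, and MV4-11 replicate 2 stood above the other MV4-11 libraries and was the only one of them under 10% mitochondrial reads. MEIS1 was lower in Molm-14 than in SKNO-1 by a log2 difference of -0.39 (SE 0.07, adjusted p 0.00022), and PBX3 was higher by 0.64 (SE 0.13, adjusted p 0.00029). Between MV4-11 and SKNO-1 the differences were 0.07 for MEIS1 and 0.07 for PBX3 without a call (adjusted p 0.46 and 0.67). Without the 4 libraries over 10% mitochondrial reads, which left replicate 2 as the only MV4-11 library with DMSO, the PBX3 difference was 0.36.

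Between Molm-14 and SKNO-1 all 10 genes were called, 9 higher in Molm-14 and MEIS1 lower, where limma called 65.2% of the genes tested and 32.7% as higher. Between MV4-11 and SKNO-1, 8 of 10 were called, all higher in MV4-11, against a background of 41.6% in either direction and 22.2% higher. Between Molm-14 and MV4-11, 7 of 10 were called, 6 higher and MEIS1 lower (-0.46), against 54.1% and 27.9% higher. HOXA3, HOXA4 and HOXA7 were not called there, with differences of 0.72, 0.81 and 0.95 (adjusted p 0.073, 0.068 and 0.14), and with voom weights all 10 were. Voom weights called 54.8% of all genes tested in that comparison. Over the 10 genes the median difference from SKNO-1 was 3.11 for Molm-14 and 2.37 for MV4-11, beside 0.01 and -0.02 over all genes tested.

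**Figure D1:**
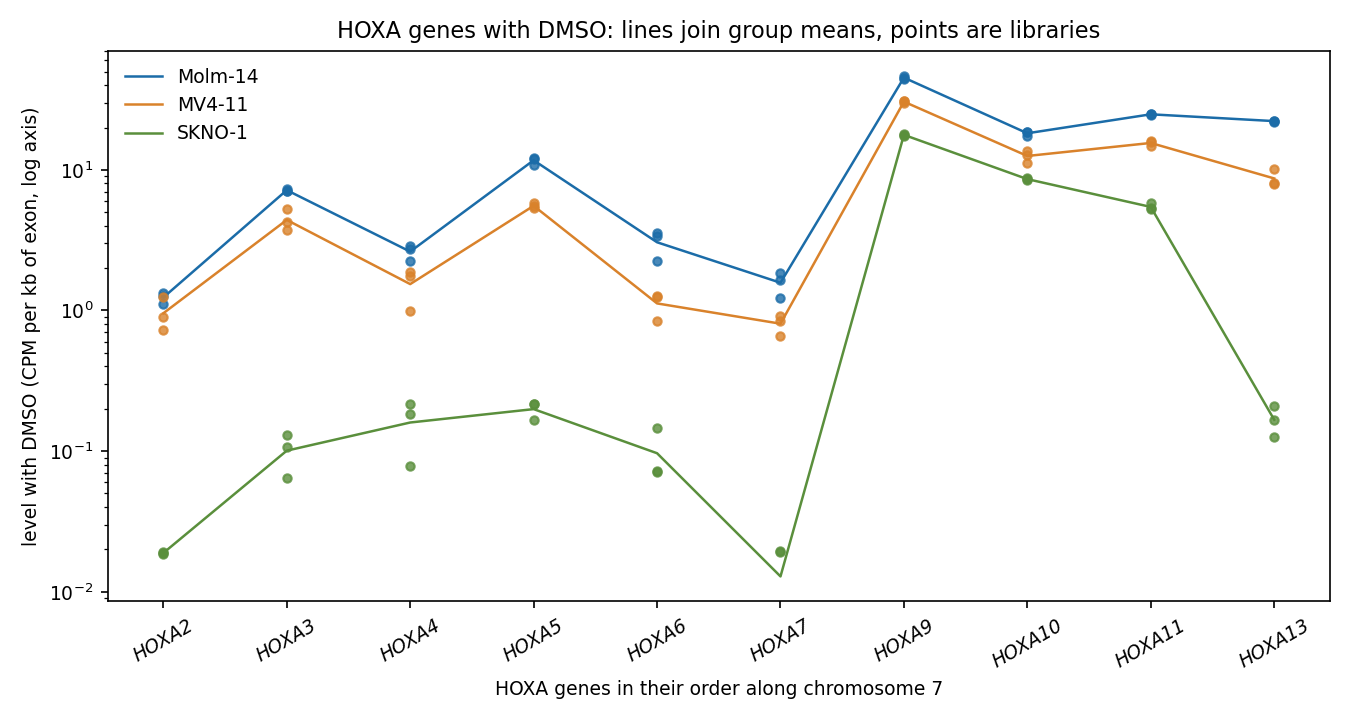
Level of the HOXA genes with DMSO, in CPM per kb of exon on a log axis, in their order along chromosome 7, with HOXA2 and HOXA13 added to the 8 HOXA genes described. Lines join the means of 3 libraries and points are single libraries, and the 1 SKNO-1 library with no HOXA7 read has no point. Molm-14 and MV4-11 run in parallel, while the SKNO-1 means are at or below 0.20 from HOXA2 to HOXA7 and at HOXA13.

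Genes were set in order per kilobase of all their annotated exons merged, a length that need not be that of the transcript read. The order depends on this choice. MEIS1, with 10934 such bases, led in SKNO-1 by CPM (119 against 114 for PBX3) but not per kb. HOXA9 was the highest of the 10 in Molm-14 with DMSO, at 45.3 ± 1.22 CPM per kb (SD, n = 3). PBX3 followed at 39.3 ± 0.65, HOXA11 at 24.8 ± 0.14, HOXA10 at 18.2 ± 0.58, HOXA5 at 11.7 ± 0.73, MEIS1 at 8.30 ± 0.22 and HOXA3 at 7.17 ± 0.13. HOXA6 at 3.06 ± 0.70, HOXA4 at 2.62 ± 0.32 and HOXA7 at 1.58 ± 0.32 closed the order, and of all neighbours only HOXA6 and HOXA4 had overlapping ranges of mean ± SD. In MV4-11 the order began with HOXA9 at 30.5 ± 0.58 and PBX3 at 26.7 ± 4.88, whose ranges overlapped, as did those of HOXA10 at 12.6 ± 1.22 and MEIS1 at 11.4 ± 0.80. HOXA4 at 1.54 ± 0.48, HOXA6 at 1.12 ± 0.25 and HOXA7 at 0.81 ± 0.13 closed the MV4-11 order, each overlapping its neighbour. In SKNO-1 PBX3 led at 25.1 ± 0.23, ahead of HOXA9 at 17.7 ± 0.40, MEIS1 at 10.9 ± 0.11, HOXA10 at 8.59 ± 0.21 and HOXA11 at 5.45 ± 0.29. HOXA5, HOXA4, HOXA3 and HOXA6 lay between 0.10 and 0.20 CPM per kb in SKNO-1 with overlapping ranges between neighbours, and HOXA7 was at 0.01.

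Some neighbours of these genes in the cluster were also lowest in SKNO-1. They included HOXA13, beyond HOXA11, so low SKNO-1 levels were not confined to the side of HOXA3 to HOXA7. HOXA13, the last gene of the posterior end, was at 113 CPM in Molm-14 with DMSO, 44.2 CPM in MV4-11 and 0.85 CPM in SKNO-1, and HOTTIP, a long RNA from beyond HOXA13, was at 5.13, 4.15 and 0.28 CPM. HOXA-AS2, an antisense RNA of the HOXA3 to HOXA4 region, was at 5.26 CPM in Molm-14, 2.95 CPM in MV4-11 and 0.06 CPM in SKNO-1. HOXA11-AS, antisense to HOXA11, was at 9.29, 6.58 and 1.38 CPM. HOXA10-AS and HOTAIRM1, named after their values were seen, were not lowest in SKNO-1. For HOXA10-AS, antisense to HOXA10, the SKNO-1 libraries with DMSO overlapped those of each other line. HOTAIRM1, an RNA beside HOXA2, was higher in every SKNO-1 library with DMSO than in every Molm-14 library with DMSO. Whether reads were counted by strand is not given in the sources used here, so reads of a gene and of its antisense partner cannot be told apart. In GENCODE 29, 62.5% of the exon bases of HOXA7, 47.3% of HOXA4, 40.1% of HOXA6, 31.1% of HOXA11, 27.0% of HOXA9, 26.3% of HOXA10 and 17.9% of HOXA3 were shared with another gene. HOXA5 and PBX3 shared none, and MEIS1 shared 4.19%. Values of the overlapping genes are uncertain, and these shares do not measure by how much. The shared bases of HOXA7 were those of HOXA-AS3, an antisense RNA named here for this overlap. HOXA-AS3 was at 3.94, 3.75 and 3.01 CPM in Molm-14 with DMSO. The readthrough gene ENSG00000257184, which shares exons with HOXA9 and HOXA10, was not analysed here.

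**Figure D2:**
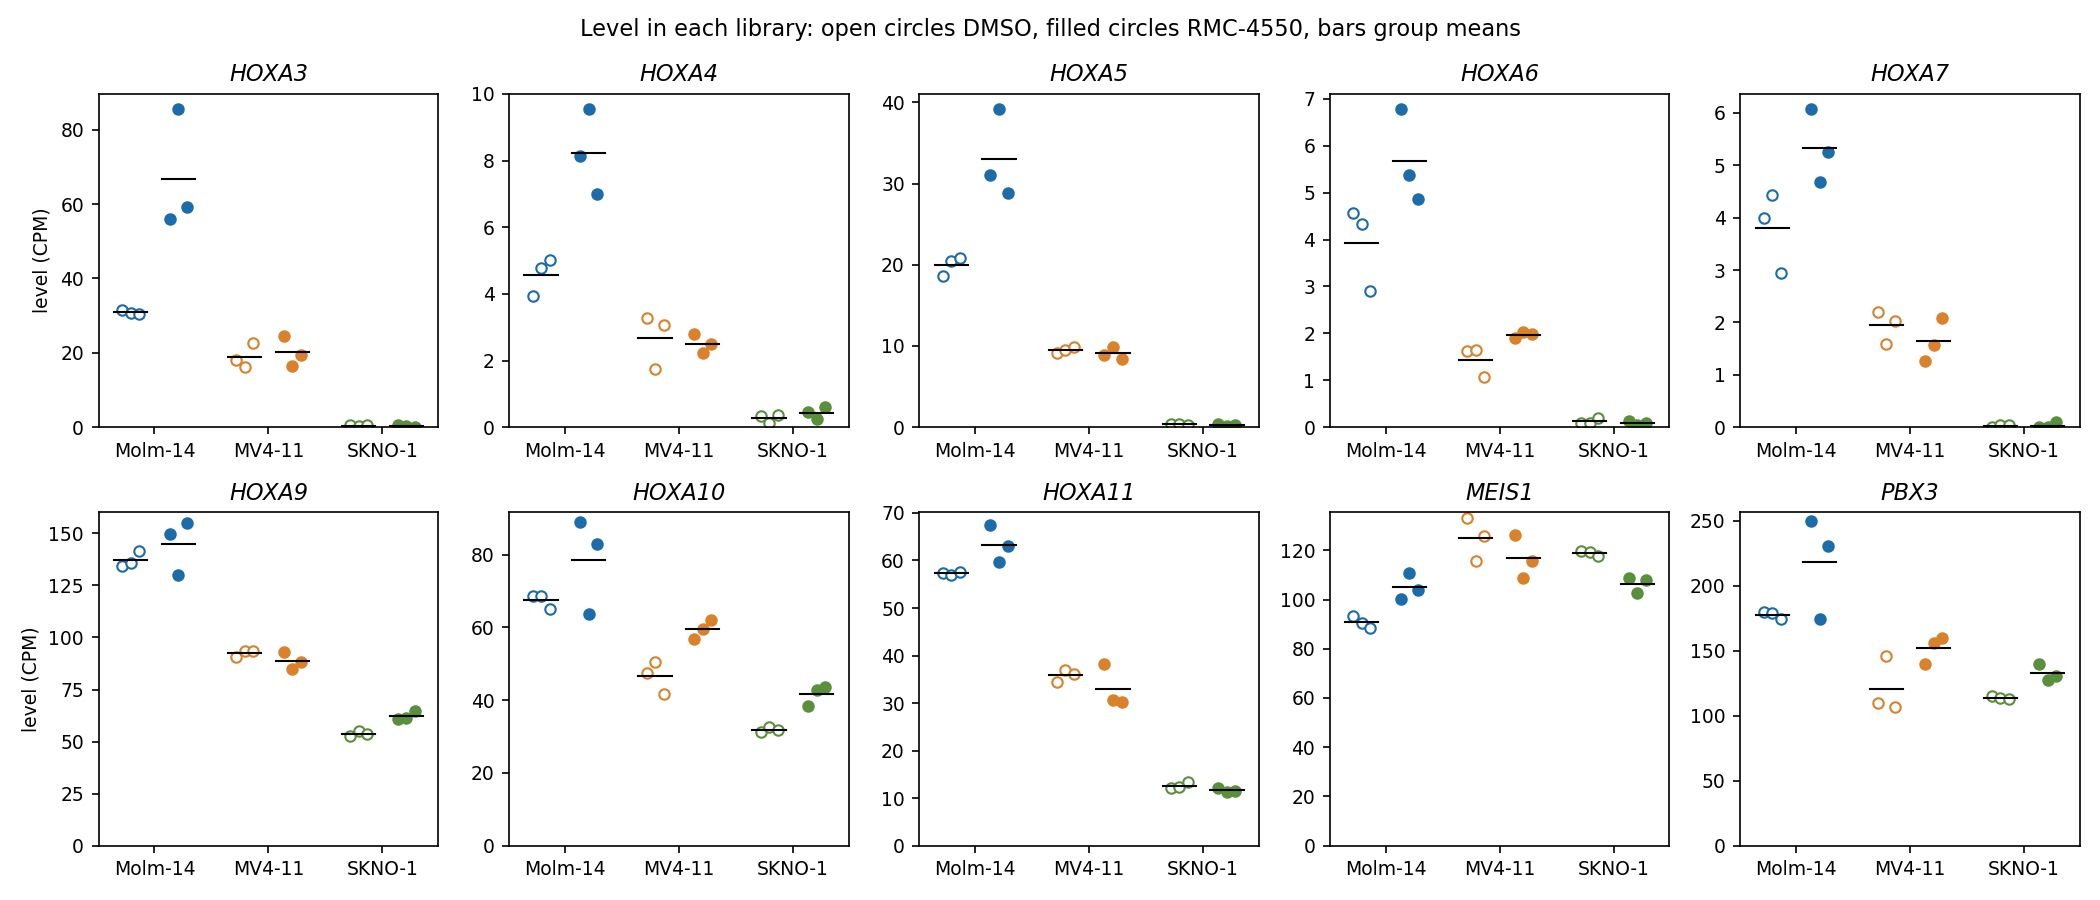
Level of each of the 10 genes in every library, in CPM on linear axes that start at 0. Open circles are DMSO libraries, filled circles RMC-4550 libraries and bars the mean of 3. HOXA3 to HOXA7 separate DMSO from RMC-4550 in Molm-14, and are near 0 in SKNO-1.

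With RMC-4550 in Molm-14, HOXA3 and MEIS1 rose, and HOXA4 to HOXA7 were higher in every treated library than in every DMSO library without passing the test. HOXA3 stood at 55.9, 85.4 and 59.2 CPM with RMC-4550, against 30.5 to 31.5 CPM with DMSO. Its highest library was replicate 2, which had 15.0% mitochondrial reads. In bulk RNA a change in the share of cells that express a gene and a change in RNA per cell cannot be told apart. The log2 change of HOXA3 was 1.09 (SE 0.32, adjusted p 0.012). It was 0.90 with an adjusted p of 0.053 when replicate 2 was left out, and was called without the 4 libraries over 10% mitochondrial reads (0.90, adjusted p 0.030).

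The neighbouring genes had smaller values in the same direction. HOXA4 was at 8.14, 9.54 and 7.01 CPM with RMC-4550 and at 3.94, 4.79 and 5.01 CPM with DMSO, a log2 change of 0.84 (SE 0.36, adjusted p 0.066). HOXA5 was at 31.0, 39.1 and 28.8 CPM, a change of 0.71 (SE 0.32, adjusted p 0.076). Replicate 2 was again the highest library for both genes. HOXA6 at 4.86 to 6.78 CPM and HOXA7 at 4.68 to 6.07 CPM gave 0.54 and 0.50, which did not pass (adjusted p 0.18 and 0.46). The fit over 18 libraries gave HOXA3 to HOXA7 a spread that also came from SKNO-1 libraries with 0 to 13 reads. On the log2(CPM + 1) scale all of these 5 genes were called higher in Molm-14, with changes from 0.41 to 1.06 (adjusted p from 0.00012 to 0.024). With voom weights HOXA3 to HOXA6 were called. A fit of the 2 Molm-14 groups alone called HOXA3 to HOXA5 but neither HOXA6 nor HOXA7. Of all genes tested, 22.5% were called higher with log2(CPM + 1), 21.4% with voom weights and 17.5% in the separate fit.

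The posterior genes did not pass the test in Molm-14. HOXA9 was at 149.7, 130.2 and 155 CPM with RMC-4550 (log2 change 0.08, adjusted p 0.40), and HOXA10 at 88.9, 63.8 and 82.9 CPM (0.21, adjusted p 0.13). For both genes replicate 2 lay below the DMSO range while the other treated libraries stood above it. HOXA11 was at 67.4, 59.6 and 63.0 CPM, above each DMSO library, with a change of 0.14 (adjusted p 0.21). Without replicate 2 the change of HOXA10 was 0.35 and was called (adjusted p 0.0059).

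MEIS1 rose in Molm-14 from 88.6 to 93.3 CPM with DMSO to 100.4, 111 and 104 CPM, with no overlap and a log2 change of 0.21 (SE 0.07, adjusted p 0.029). That call was lost without DMSO replicate 2 or 3 or RMC-4550 replicate 2 or 3, in a fit of the 2 Molm-14 groups alone and with no filter, with changes from 0.17 to 0.22. PBX3 was at 249.5, 174 and 230.3 CPM, with replicate 2 just below the DMSO libraries and the other 2 well above them. The change of PBX3, at 0.28, did not pass (adjusted p 0.083), and was 0.43 and called without replicate 2 (adjusted p 0.0057). In all, 2 of the 10 genes were called in Molm-14, both higher, where 21.5% of genes tested were called higher and 46.7% in either direction. DMSO and treated libraries did not overlap, with the treated ones higher, for 7 of the 10 genes against 26.9% of all genes tested. The median change over the 10 genes was 0.39, beside -0.06 over all genes. Without the 4 libraries over 10% mitochondrial reads 6 were called, all higher (HOXA3, HOXA9, HOXA10, HOXA11, MEIS1 and PBX3). In that setting 59.0% of all genes tested were called, and 27.7% were called higher.

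**Figure D3:**
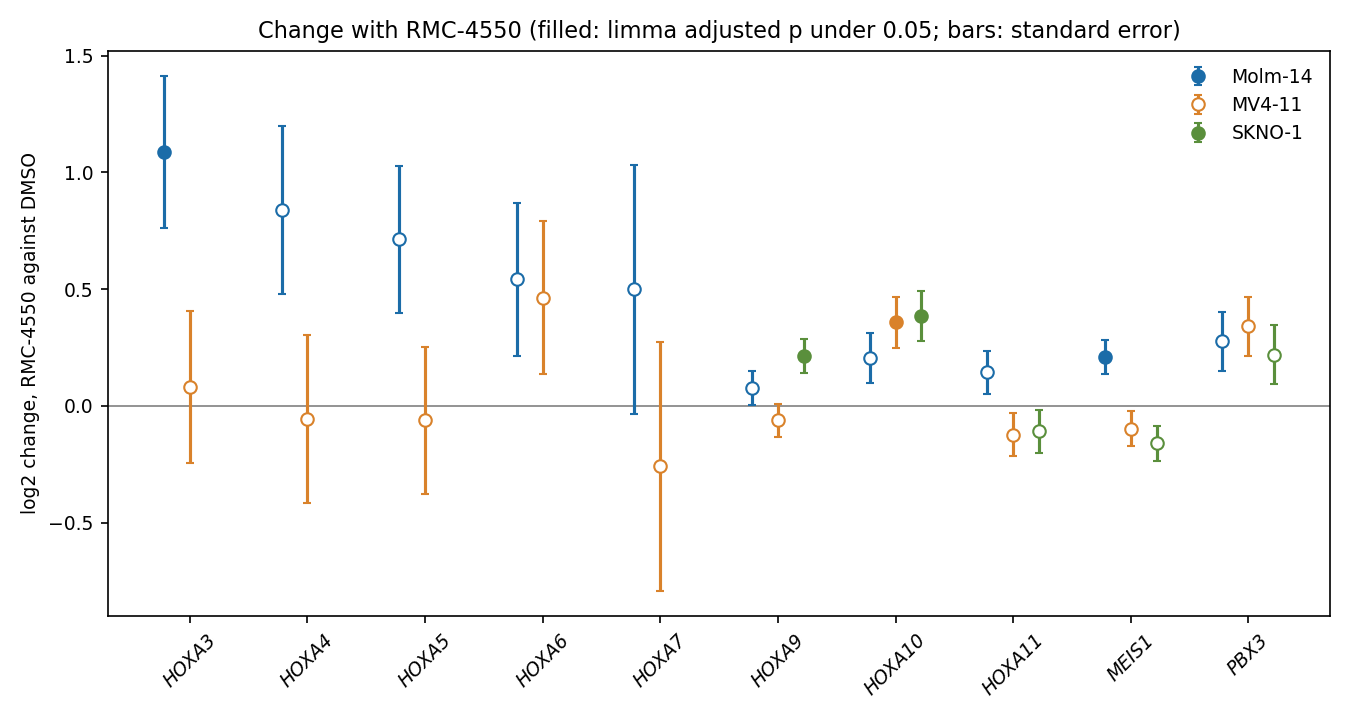
Log2 change of each gene with RMC-4550 against DMSO in the 3 lines, from the limma fit over 18 libraries, with bars for the standard error. Filled points passed an adjusted p of 0.05, and HOXA3 to HOXA7 have no SKNO-1 point because they were not tested there. HOXA3 in Molm-14 has the largest change at 1.09, and HOXA10 is above 0 in all 3 lines.

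In MV4-11 a single gene of the 10 rose with the inhibitor. HOXA10 was at 56.7, 59.6 and 62.0 CPM with RMC-4550 and at 47.5, 50.5 and 41.6 CPM with DMSO. The groups did not overlap, and the log2 change was 0.36 (SE 0.11, adjusted p 0.038). The call was lost when DMSO replicate 1 or 3 or RMC-4550 replicate 2 or 3 was left out. It was also lost in a fit of the 2 MV4-11 groups alone and with no filter. Without the 4 libraries over 10% mitochondrial reads, which left DMSO replicate 2 alone in its group, the change was 0.27. PBX3 was at 139, 156 and 159.7 CPM against 109.6, 146 and 107 CPM, overlapping only through DMSO replicate 2, with a change of 0.34 that did not pass (adjusted p 0.089). Leaving out that library gave 0.49 with a call (adjusted p 0.0089), whereas leaving out the 4 libraries over 10% mitochondrial reads gave 0.11.

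The remaining genes of MV4-11 gave changes between -0.26 and 0.46 without a call. HOXA9 was at 93.0, 84.9 and 88.0 CPM with RMC-4550 (-0.06, adjusted p 0.64) and MEIS1 at 126, 109 and 115.5 CPM (-0.10, adjusted p 0.45), both overlapping the DMSO range. HOXA3 (0.08) and HOXA5 (-0.06) also overlapped, and HOXA6 at 1.90 to 2.03 CPM lay above its DMSO libraries (0.46, adjusted p 0.41). HOXA11 was at 38.3, 30.7 and 30.2 CPM, a change of -0.12 that became -0.28 without the 4 libraries over 10% mitochondrial reads. The 1 gene called of 10 compares with 5.85% of genes tested that were called higher and 13.9% in either direction. HOXA6 and HOXA10 were the 2 genes of 10 whose treated libraries all lay above DMSO, against 11.1% of all genes tested. The median change over the 10 genes was -0.06, beside -0.01 over all genes. Calls without the 4 libraries are not counted for MV4-11, where only DMSO replicate 2 remained in its group.

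In SKNO-1 the posterior genes HOXA9 and HOXA10 rose. HOXA9 was at 61.0, 61.3 and 64.8 CPM with RMC-4550 against 52.5 to 54.8 CPM with DMSO, and HOXA10 at 38.4, 42.8 and 43.8 CPM against 31.1 to 32.7 CPM. Treated and DMSO libraries did not overlap for either gene. The log2 changes were 0.21 for HOXA9 (SE 0.07, adjusted p 0.038) and 0.39 for HOXA10 (SE 0.11, adjusted p 0.015). Leaving out a single SKNO-1 library, whichever of the 6, ended the HOXA9 call at changes of 0.19 to 0.23, and the HOXA10 call was lost without DMSO replicate 1 or RMC-4550 replicate 2 or 3.

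MEIS1 and PBX3 separated the SKNO-1 groups without a call. MEIS1 was at 109, 103 and 108 CPM with RMC-4550, below all DMSO libraries (-0.16, adjusted p 0.12), and PBX3 at 139.9, 127 and 130.3 CPM, above all of them (0.22, adjusted p 0.22). A fit of the 2 SKNO-1 groups alone called both (adjusted p 0.014 and 0.0033), where 56% of all genes tested were called. HOXA11 was at 12.2, 11.3 and 11.4 CPM, a change of -0.11 (adjusted p 0.42). HOXA3 to HOXA7 were not tested because they had under 1 CPM in each SKNO-1 library. Thus 2 of 5 tested genes were called, both higher, where 10.8% of genes tested were called higher and 27.1% in either direction. Treated libraries all lay above DMSO for 3 of the 5 (HOXA9, HOXA10 and PBX3), against 26.6% of genes tested, and all below for MEIS1, against 35.4%. The median change of the 5 was 0.21, beside -0.05 over all genes. Without the 4 libraries over 10% mitochondrial reads, none of which is from SKNO-1, 4 of 5 were called, with MEIS1 lower and PBX3 higher, where 53.3% of all genes tested were called.

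The change with RMC-4550 was not shown to differ between lines for any of the 10 genes. When the Molm-14 response was set against the MV4-11 response, limma called 0 of 10 after adjustment and 2 at an unadjusted p under 0.05 (HOXA3 and MEIS1), with 17.6% of genes tested called. With voom weights 2 were called, HOXA3 and HOXA5, beside 17.1% of all genes tested. The difference for MEIS1 was 0.31 (SE 0.10, adjusted p 0.053), with every treated library higher in Molm-14 and overlapping groups in MV4-11, and for HOXA3 it was 1.01 (SE 0.46, adjusted p 0.13). When the SKNO-1 response was set against the mean of the other lines, limma called 0 of 10 and 5 at an unadjusted p under 0.05, voom weights called 0, and the background was 3.45%. HOXA9 gave 0.21 (SE 0.09, adjusted p 0.28) and MEIS1 -0.22 (SE 0.09, adjusted p 0.27) there, and both were called with the mitochondrial share as a covariate (adjusted p 0.045 and 0.017). With that covariate 15.9% of all genes tested were called. The 5 genes at or under 13 reads in SKNO-1 give no usable estimate of a response in that line.

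HOXB3, HOXB4, HOXC4 and HOXC6 rose with the inhibitor in Molm-14. Of 31 other HOX genes, 22 had a row and 13 were tested in Molm-14, with a median change of 0.47. Of the 13, 7 were called, 6 of them higher, where 46.7% of all genes tested were called and 21.5% higher. In MV4-11 limma called 0 of 13 and in SKNO-1 0 of 6, with 0 at an unadjusted p under 0.05 and 0 with voom weights in either line, and medians of -0.11 and 0.11. The median over all genes tested was -0.05 in SKNO-1, -0.01 in MV4-11 and -0.06 in Molm-14. HOXB4, a regulator of blood stem cell self-renewal, was at 0.67, 0.46 and 0.61 CPM in Molm-14 with DMSO and at 2.95, 1.79 and 2.94 CPM with RMC-4550, a log2 change of 2.07 (SE 0.19, adjusted p 4.6e-07). HOXB3, its neighbour, went from 4.44 to 4.90 CPM to 11.97, 20.9 and 12.05 CPM (1.64, adjusted p 3.7e-05). The treated means of 2.56 and 15.0 CPM were below those of SKNO-1 with DMSO, at 14.8 and 20.2 CPM. Without the 4 libraries over 10% mitochondrial reads HOXB3 was also called higher in SKNO-1 (0.45, adjusted p 0.00069). Its MV4-11 change in that setting was 0.60. HOXC4 went from 57.5 to 65.3 CPM to 123, 155 and 136 CPM (1.18, adjusted p 3.4e-05), and HOXC6 from 18.2 to 18.8 CPM to 29.5, 48.3 and 32.7 CPM (0.96, adjusted p 0.0012). HOXA2 (1.16) and HOXC9 (1.78) were the other genes called higher, named after their values were seen. HOXA13 at -0.01 (adjusted p 0.96) and HOXB9, at 72.5 CPM with DMSO and 51.3 CPM with RMC-4550 (-0.50, adjusted p 0.18), were not called. The HOXB9 groups did not overlap. In SKNO-1 HOXB9 had at most 1 read in each library.

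Of 8 other TALE genes, the partners of HOX proteins, 5 were tested in SKNO-1, 6 in MV4-11 and 4 in Molm-14. PBX2, a close relative of PBX3, was called higher in Molm-14, from 135 to 154 CPM (log2 change 0.19, adjusted p 0.019). That call was lost without DMSO replicate 1 or RMC-4550 replicate 3, in a fit of the 2 groups alone and with no filter. Limma called 0 TALE genes in MV4-11 and 0 in SKNO-1, with 1 at an unadjusted p under 0.05 in each and 0 with voom weights. PBX2 gave -0.15 in SKNO-1 and -0.07 in MV4-11, of which the first was called without the 4 libraries over 10% mitochondrial reads (adjusted p 0.015). MEIS2 had DMSO means of 76.5 CPM in Molm-14, 49.9 CPM in MV4-11 and 40.8 CPM in SKNO-1, while PBX4 was at 0.02, 7.69 and 9.52 CPM. Of the antisense and neighbouring RNAs, HOXA11-AS was called higher in SKNO-1 (1.38 to 2.02 CPM, 0.56, adjusted p 0.026), and the call was lost with log2(CPM + 1), voom weights and several single libraries left out.

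DOT1L and EZH2, 2 chromatin regulators of HOX genes, fell in all 3 lines. DOT1L, the histone methyltransferase recruited by KMT2A fusions, was at 392 to 412 CPM in Molm-14 with DMSO and at 222, 169 and 204 CPM with RMC-4550, at 279 to 357 CPM and 171, 205 and 229 CPM in MV4-11, and at 231 to 236 CPM and 119.7, 146 and 130.0 CPM in SKNO-1. No treated library reached a DMSO library of its line. The log2 changes were -1.04, -0.62 and -0.83 (adjusted p 6.4e-06, 0.0027 and 0.00011). The MV4-11 call was lost in a fit of its 2 groups alone (adjusted p 0.070). EZH2, the methyltransferase of Polycomb repressive complexes, fell by 0.40 in SKNO-1, 0.44 in MV4-11 and 0.77 in Molm-14 on the log2 scale (adjusted p 0.00027, 0.00027 and 2.3e-07), again with no overlap in any line.

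**Figure D4:**
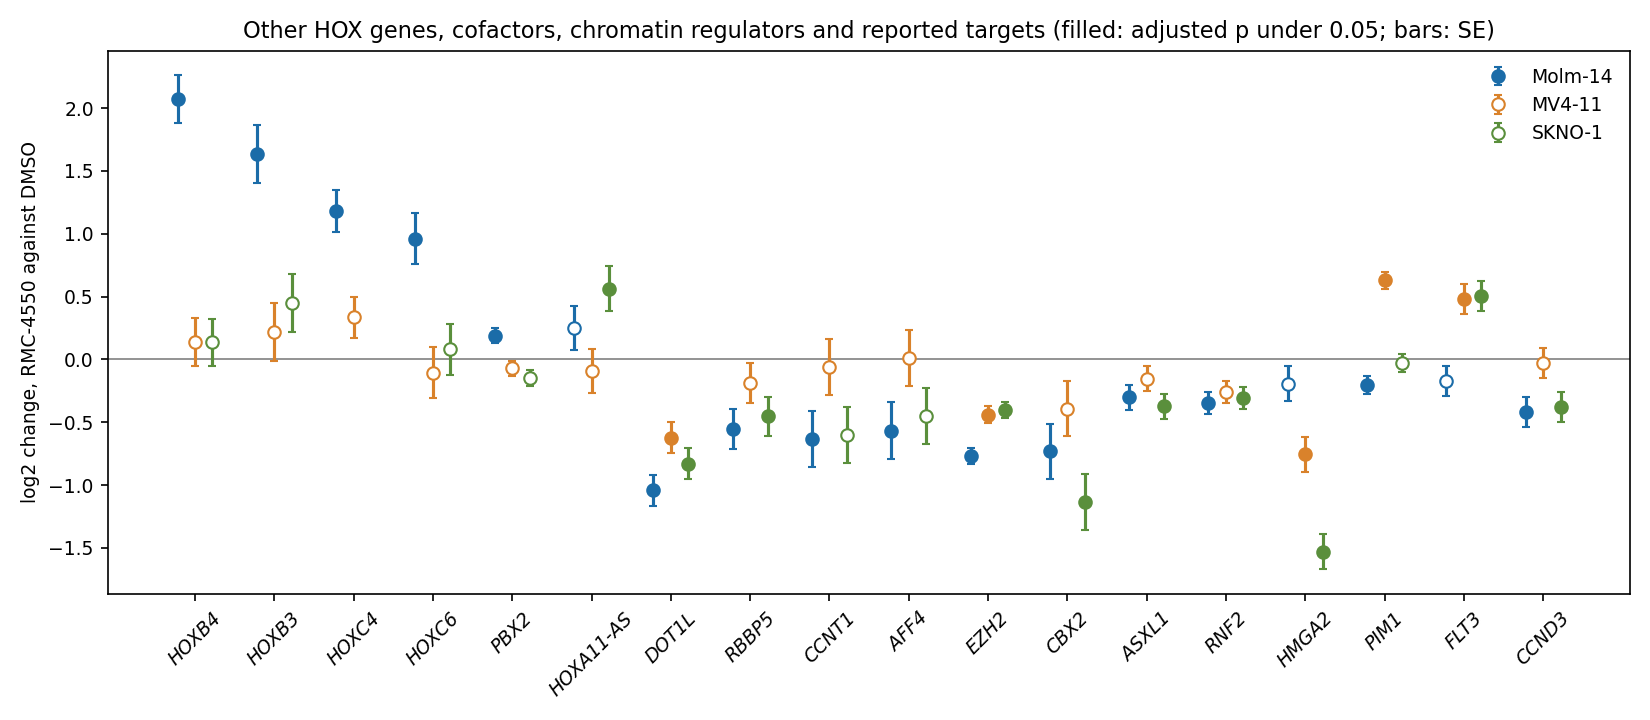
Log2 change with RMC-4550 against DMSO of the other HOX genes, HOX cofactors, chromatin regulators and reported HOXA9 and MEIS1 targets that the text names for a call, with bars for the standard error. Filled points passed an adjusted p of 0.05, and HOXC4 was not tested in SKNO-1. DOT1L and EZH2 lie below 0 and are filled in all 3 lines, whereas HOXB4, HOXB3, HOXC4 and HOXC6 are filled in Molm-14 only.

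Of 18 genes for KMT2A complexes and elongation partners, 1 was called higher and 5 lower in Molm-14, 1 and 2 in MV4-11, and 0 and 4 in SKNO-1. In either direction that is 4 of 18 in SKNO-1, 3 in MV4-11 and 6 in Molm-14, beside 27.1%, 13.9% and 46.7% of all genes tested. The medians were -0.24, 0.03 and -0.20 (Molm-14 first, SKNO-1 last). RBBP5, a core subunit of KMT2 complexes, fell by 0.55 in Molm-14 and by 0.45 in SKNO-1, where the call was lost without any single library other than RMC-4550 replicate 1. CCNT1 and AFF4, elongation factors, were called lower in Molm-14 (-0.63 and -0.57). Without RMC-4550 replicate 2 neither was called (-0.39 and -0.34), and both calls were also lost without any 1 of the DMSO replicates. Of the 18 genes, 11 were called in SKNO-1 and 10 in Molm-14 without the 4 libraries over 10% mitochondrial reads. The shares of all genes tested were 53.3% and 59.0%. Of 14 Polycomb repressors, 3 were called higher and 9 lower in Molm-14, 0 and 1 in MV4-11, and 0 and 4 in SKNO-1, with medians of -0.35, -0.14 and -0.16. The 12, 1 and 4 called of 14 stand beside 46.7%, 13.9% and 27.1% of all genes tested. CBX2, a chromodomain subunit, fell by 0.73 in Molm-14 and by 1.14 in SKNO-1, and its Molm-14 call was lost without RMC-4550 replicate 2 (-0.43). ASXL1, a chromatin scaffold often mutated in myeloid disease, fell by 0.30 and 0.37 in the same lines, with the Molm-14 call lost without DMSO replicate 2 or 3 or RMC-4550 replicate 2. RNF2, a ubiquitin ligase, fell by 0.35 and 0.31, with the SKNO-1 call lost without DMSO replicate 1 or RMC-4550 replicate 2 or 3. Of the 14, leaving out the 4 libraries over 10% mitochondrial reads gave 9 called in SKNO-1 and 13 in Molm-14. The shares of all genes were 53.3% and 59.0%.

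Of 22 genes reported as targets of HOXA9 and MEIS1, 20 were tested in SKNO-1, 18 in MV4-11 and 17 in Molm-14. In Molm-14 2 were called higher and 6 lower, in MV4-11 2 and 1, and in SKNO-1 1 and 2, with medians of -0.19, 0.05 and -0.04. The calls in either direction were 8 of 17, 3 of 18 and 3 of 20, beside 46.7%, 13.9% and 27.1% of all genes tested. HMGA2, a chromatin protein of growing cells, fell in MV4-11, where its mean went from 25.6 to 15.2 CPM (-0.75, adjusted p 0.0016). It also fell in SKNO-1 (-1.53, adjusted p 7.3e-07). PIM1, a survival kinase, rose by 0.63 in MV4-11 (adjusted p 1.7e-05) and fell by 0.20 in Molm-14 (adjusted p 0.024). The latter call was lost without DMSO replicate 1 or 2 or RMC-4550 replicate 1 or 3. FLT3 itself rose in MV4-11 (0.48) and SKNO-1 (0.51), and the MV4-11 call was lost without DMSO replicate 1 or 3 or RMC-4550 replicate 2 or 3. CCND3, a D-type cyclin, fell by 0.42 in Molm-14 and by 0.38 in SKNO-1, and only leaving out DMSO replicate 1, of the 6 SKNO-1 libraries, kept the SKNO-1 call. Without the 4 libraries over 10% mitochondrial reads 11 target genes were called in SKNO-1 and 11 in Molm-14, beside 53.3% and 59.0% of all genes.

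Across the 18 libraries the log2 levels of HOXA3 to HOXA7 correlated with each other at a Pearson r of 0.95 to 0.99, and that of HOXA9 with these at 0.90 to 0.94. PBX3 correlated with HOXA10 at 0.91 and MEIS1 with PBX3 at -0.68. Among 11021 genes with a mean of at least 5 CPM, those most alike in pattern to HOXA9 over the 18 libraries were SNX24 (r = 0.990), RPL10 (0.989) and LINC00683 (0.989). For MEIS1 they were CERS5 (0.946), GSK3A (0.941) and SMTN (0.935), and for PBX3 IL13RA1 (0.965), WSB2 (0.965) and FTH1P2 (0.959). The libraries fall into 3 lines, so these values hold differences between lines as well as within them, and they are given without a test.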

How the data were processed

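RNA-seq was done on 18 samples, 3 biological replicates of each of 6 groups. The authors deposited log2 CPM values (reads per 1000000) for 40184 Ensembl gene IDs. FastQC, STAR, limma and GRCh38 are named in the submitters' processing notes, and the counting tool, annotation and use of strand are not given in the sources used here. Per the file's own values, each value equals log2 of (reads + 0.5) over the effective library, per 1000000, and whole reads were recovered for 100% of low values (within 0.05 of a whole number). Symbols, coordinates and exon lengths came from GENCODE 29, which matched 40069 IDs.

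The deposited log2 values were fitted with limma 3.58.1 in R 4.3.3 (trended empirical Bayes, 1 coefficient per group, 18 libraries). Genes reaching 1 CPM in 3 or more libraries entered the fit (16262), and those reaching it in 3 libraries of a line compared entered that comparison. Benjamini-Hochberg adjustment ran over all genes of a comparison, with calls at 0.05, and was tested on simulated data. A log2 change here carries the deposited offset of 0.5 reads. From each list up to 4 genes were named, those called in most lines with a mean of at least 5 CPM, plus other HOX, TALE and antisense genes with at least 5 CPM in a DMSO group. A gene of the list of other HOX genes is counted in that list but is not reported here. Members and lists were chosen with earlier results of these data known. Alternatives were a log2(CPM + 1) scale, no filter, a filter at a mean of 5 CPM, median-ratio scaling, separate fits, a replicate block, mitochondrial share as covariate, voom weights and leaving out each library. Leaving out the 4 libraries over 10% mitochondrial reads was added after seeing the data. Figures were drawn with matplotlib 3.10.9.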

Additional observations from a re-analysis of the deposited data

Results flagged for a closer look

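The change with RMC-4550 was tested for a difference between lines with limma over all genes, and none of the 10 genes passed. The SKNO-1 response was set only against the mean response of the other lines, not against each of them. Among the genes on the lists of other HOX genes and TALE partners, 5 of 14 and 2 of 6 tested passed for Molm-14 against MV4-11, all higher in Molm-14, where 17.6% of all genes were called. For SKNO-1 against the mean response of the others, 2 of 14 and 0 of 6 passed, where 3.45% of all genes were called. Molm-14 responded more strongly upward than MV4-11 for HOXB3 (difference of log2 changes 1.42, adjusted p 0.0093), HOXB4 (1.93, adjusted p 0.00029), HOXC4 (0.84, adjusted p 0.022), HOXC6 (1.06, adjusted p 0.020) and PBX2 (0.26, adjusted p 0.048). HOXC9 (2.13, adjusted p 0.047) and PBX4 (2.20, adjusted p 0.032) were the other 2, named after their values were seen. PBX4 had 0, 1 and 0 reads in the Molm-14 libraries with DMSO and 2, 5 and 1 with RMC-4550. These give no usable estimate of a response in Molm-14, so the PBX4 call among the TALE partners carries little weight. HOXB4 also differed between SKNO-1 and the mean response of the other lines (-0.97, adjusted p 0.028). Its change was 0.14 in SKNO-1, 0.14 in MV4-11 and 2.07 in Molm-14, so SKNO-1 did not stand apart from MV4-11. HOXC8 passed too (1.93, adjusted p 0.037), named after its value was seen. HOXC8 had 5, 1 and 1 reads in SKNO-1 with DMSO and 6 in each library with RMC-4550. These give no usable estimate of a response in that line. The 4 libraries over 10% mitochondrial reads include 1 treated Molm-14 library and 3 MV4-11 libraries. Without them only replicate 2 of MV4-11 with DMSO remained. The Molm-14 against MV4-11 differences were then 0.77 for HOXB3, 1.98 for HOXB4, 0.81 for HOXC6, 0.28 for PBX2 and 0.58 for HOXC4. The calls for HOXB3 and HOXB4 held with any single library left out. The PBX2 call was lost in 15 of 21 alternatives, among them leaving out any single library other than MV4-11 DMSO replicate 2, no filter (adjusted p 0.20), separate fits (adjusted p 0.12) and voom weights (adjusted p 0.053). The HOXC4 call was lost without Molm-14 DMSO replicate 3 or RMC-4550 replicate 2, and without MV4-11 DMSO replicate 1 or 3 or RMC-4550 replicate 2 or 3. The HOXC6 call was lost without MV4-11 DMSO replicate 1 or 3 or RMC-4550 replicate 2, and in separate fits (adjusted p 0.066). The HOXB4 difference for SKNO-1 lost its call without any 1 of the SKNO-1 libraries and ranged from -1.01 to -0.91 there. That call was also lost with log2(CPM + 1) and without MV4-11 RMC-4550 replicate 2 or 3.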

How the results depend on the processing

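Calls on the 10 genes depended on the processing, and directions mostly did not. For RMC-4550 in Molm-14 the 2 genes called became 6 with log2(CPM + 1), 1 with no filter, 4 with the mitochondrial share as covariate, 5 with voom weights, 6 without the 4 libraries over 10% mitochondrial reads and 1 to 2 with single libraries left out. In Molm-14 the share of all genes called, 46.7% in the main fit, was 48.9%, 16.7%, 57.5%, 47.3% and 59.0% in these settings in turn. It was 38.8% to 48.7% with single libraries left out. In MV4-11 the 1 call became 0 with no filter (3.55% of all genes called) and in a separate fit (4.55%). That call became 2 with median-ratio scaling (13.3%) or the covariate (34.3%), and 0 to 2 with single libraries left out (8.24% to 20.5%). The main fit called 13.9% of all genes in MV4-11. Counts without the 4 libraries are left out for comparisons that use MV4-11, where only DMSO replicate 2 remained in its group. In SKNO-1 the 2 calls became 1 with no filter (8.38% of all genes called) and 0 to 1 with single libraries left out (19.7% to 21.9%). They became 4 in a separate fit (56%), with the covariate (49.6%) or without the 4 libraries (53.3%). The main fit called 27.1% of all genes in SKNO-1. For MV4-11 against SKNO-1, 8 became 5 at a mean of at least 5 CPM, with 46% of all genes called in place of 41.6%. For the response of SKNO-1 against the others, 0 became 3 with the covariate and 0 to 1 with single libraries left out. All genes called there were 3.45% in the main fit, 15.9% with the covariate and 2.07% to 5.03% with single libraries left out. For the response of Molm-14 against MV4-11, 0 became 3 with log2(CPM + 1), 1 at a mean of at least 5 CPM and 2 in a separate fit. It became 1 with the covariate, 2 with voom weights and 0 to 2 with single libraries left out. All genes called, 17.6% in the main fit, were 20%, 21.7%, 7.11%, 20.3% and 17.1% in these settings in turn. With single libraries left out they were 9.15% to 40.2%. The cause was not tested.

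Directions turned 29 times, mostly at values near 0. With single libraries left out, the MV4-11 change with RMC-4550 ran from -0.071 to 0.21 for HOXA3, from -0.34 to 0.11 for HOXA4, from -0.055 to 0.38 for HOXB3 and from -0.32 to 0.10 for HOXC6, and HOXC6 in SKNO-1 ran from -0.0067 to 0.16. PBX3 in MV4-11 against SKNO-1 ran from -0.073 to 0.15. For the response of SKNO-1 HOXA4 ran from -0.20 to 0.57, and for that of Molm-14 against MV4-11 HOXA6 ran from -0.13 to 0.27 and PBX3 from -0.21 to 0.089. With the covariate, the MV4-11 change was 0.15 for HOXA4, 0.0054 for HOXA5 and 0.13 for HOXC6. Without the 4 libraries it was 0.43 for HOXA4 and 0.19 for HOXA7. MEIS1 in MV4-11 against SKNO-1 was -0.035 with the covariate and -0.038 without the 4 libraries. In these settings the response of Molm-14 against MV4-11 was 0.080 and 0.079 for HOXA10, and 0.26 (with a call) and 0.32 for PBX3. HOXA4 in the response of SKNO-1 was -0.18 with log2(CPM + 1). Beside these turns, 1864 values kept direction and call, 123 lost and 78 gained a call.

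Same-numbered replicates did not deviate together in every pair (r from -0.40 to 0.59), and the main fit did not pair samples by number. With 3 libraries in a group, these values cannot show whether same-numbered samples were handled together. With the replicate block limma called 3, 0 and 2 genes in the 3 lines with RMC-4550 (Molm-14 first, SKNO-1 last), 10, 8 and 8 between lines, and 0 and 0 for the differences in response. Of all genes tested the block called 43.7%, 11.8% and 24.5% with RMC-4550 in these lines. Between lines it called 63.6% (Molm-14 against SKNO-1), 38.3% (MV4-11 against SKNO-1) and 51.2% (Molm-14 against MV4-11). The share was 2.7% for the response of SKNO-1 and 13.1% for that of Molm-14 against MV4-11. HOXA10 in MV4-11 had an adjusted p of 0.065 with this block, and PBX2 in Molm-14 against MV4-11 one of 0.076. Median-ratio scaling raised the share called higher among genes called from 40.0% to 50.4% in SKNO-1, from 42.2% to 51.9% in MV4-11 and from 46.0% to 50.8% in Molm-14. Separate fits gave no value for the response of SKNO-1, nor the filter at 5 CPM for HOXA4, HOXA6 and HOXA7. Depth limits HOXA3 to HOXA7 in SKNO-1, where a response was not detectable.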
